A study of Mus musculus with 2 samples.

Results

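Cycling monocytes are the blood monocytes that carry transcripts of cell division. They were chosen by a rule: cells that the authors' table labels Monocyte and in which the raw counts of unique molecular identifiers (UMIs, each counted as 1 captured RNA molecule) of 10 genes, Birc5, Ccnb2, Cdc20, Cdca3, Cdca8, Cenpa, Ube2c, Ccna2, Mki67 and Top2a, sum to 3 or more. This sum is called the rule sum below. The rule found 177 cells among 1545 monocytes and 5793 cells in all, 19 of 552 monocytes in the young and 158 of 993 in the aged library. They were compared with the 446 young and 626 aged monocytes whose rule sum was 0. No cell cycle phase was called, and the cells are named by the rule alone.

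The cells came from blood of C57BL/6 mice collected 24 h after surgery in which the proximal middle cerebral artery was blocked for a time, a model of ischemic stroke (transient proximal MCAo). The young group was aged 2 to 4 months and the aged group 18 to 24 months, with 1 droplet single-cell RNA library each. Sorting used CD11b, an integrin of myeloid cells, and Ly6G, a surface protein of mouse neutrophils, and took both CD11b+ Ly6G− and CD11b+ Ly6G+ cells, so lymphocytes and most other leukocytes are in the libraries only as far as they passed the CD11b gate. All mice had the stroke, and whether the cells of several mice were pooled is not given in the sources used here.

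A dividing cell copies its DNA in S phase, condenses and separates the chromosomes in mitosis, and destroys mitotic regulators with the anaphase-promoting complex when it exits. Many mitotic genes are held silent in resting cells by the DREAM complex, which reads the CHR element (TTTGAA) in their promoters. CCAAT boxes are counted below as a separate motif. Blood monocytes are held to be largely non-dividing cells released from bone marrow, where their precursors divide; classical Ly6C-high monocytes are the recent arrivals, and the nonclassical Ly6C-low cells arise from them and depend on the factor Nr4a1.

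The promoters of the genes that chose the cells are shown first, because most of them share these letters. RefSeq (build GRCm38.p6) gave promoters for 9 of the 10 rule genes, in windows of 300 bases from 250 before the start site on. The lines below run 5′ to 3′ on the gene's strand, in lower case, with every TTTGAA and every CCAAT, on either strand, in capitals (so TTCAAA and ATTGG are the same motifs on the opposite strand, and neighbouring motifs can overlap, as in the capitals CCAATTGG of Ube2c).
Ccnb2: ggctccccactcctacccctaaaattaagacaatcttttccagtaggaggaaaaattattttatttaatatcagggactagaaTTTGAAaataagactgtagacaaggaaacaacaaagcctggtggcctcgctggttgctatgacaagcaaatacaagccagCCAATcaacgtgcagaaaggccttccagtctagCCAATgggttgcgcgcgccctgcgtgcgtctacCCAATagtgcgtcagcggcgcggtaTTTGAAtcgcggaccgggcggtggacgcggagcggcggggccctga
Cenpa: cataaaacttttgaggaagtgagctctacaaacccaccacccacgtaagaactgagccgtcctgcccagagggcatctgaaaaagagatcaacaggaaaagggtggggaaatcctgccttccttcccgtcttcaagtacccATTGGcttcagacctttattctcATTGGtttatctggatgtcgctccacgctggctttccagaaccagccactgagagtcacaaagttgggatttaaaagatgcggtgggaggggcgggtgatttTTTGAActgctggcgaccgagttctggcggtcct
Cdc20: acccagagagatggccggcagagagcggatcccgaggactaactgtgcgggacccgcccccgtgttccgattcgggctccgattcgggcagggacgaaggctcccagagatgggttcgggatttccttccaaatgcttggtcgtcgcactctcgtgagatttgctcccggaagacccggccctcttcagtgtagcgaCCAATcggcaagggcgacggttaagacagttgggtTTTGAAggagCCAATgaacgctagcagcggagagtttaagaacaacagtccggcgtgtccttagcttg
Ube2c: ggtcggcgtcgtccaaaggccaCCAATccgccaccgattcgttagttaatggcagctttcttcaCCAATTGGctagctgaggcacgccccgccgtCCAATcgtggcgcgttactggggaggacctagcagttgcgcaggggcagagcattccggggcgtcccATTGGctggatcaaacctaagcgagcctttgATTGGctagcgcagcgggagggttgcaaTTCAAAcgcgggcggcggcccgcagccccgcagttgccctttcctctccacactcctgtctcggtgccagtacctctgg
Birc5: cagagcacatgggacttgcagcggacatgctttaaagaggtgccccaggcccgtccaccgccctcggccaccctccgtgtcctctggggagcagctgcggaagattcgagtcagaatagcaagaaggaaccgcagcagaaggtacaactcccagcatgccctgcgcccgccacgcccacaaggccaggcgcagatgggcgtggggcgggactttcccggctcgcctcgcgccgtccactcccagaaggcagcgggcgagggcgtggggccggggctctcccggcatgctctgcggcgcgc
The windows lie at chr9:70421505-70421804 on the minus strand (Ccnb2, a B-type cyclin that works with the kinase Cdk1), chr5:30666636-30666935 on the plus strand (Cenpa, the histone H3 variant of centromeres) and chr4:118437294-118437593 on the minus strand (Cdc20, an activator of the anaphase-promoting complex). The other two are chr2:164769679-164769978 on the plus strand (Ube2c, the ubiquitin-conjugating enzyme of that complex) and chr11:117848987-117849286 on the plus strand (Birc5, or survivin, of the chromosomal passenger complex). Of the 9 promoters, 8 (88.9%) held both TTTGAA and 2 or more CCAAT motifs, against 2.09% of all 32851 promoters of the same length and 1.96% of the 11098 promoters of genes with a UMI in a monocyte. Birc5 was the member without either motif in its window. In Cdc20 the first base of TTTGAA lay 18 bases before the start site, and in Ube2c, where the motif is on the opposite strand, the leftmost base of TTCAAA lay 29 bases before it. The letters of the E2F site, searched as TTTCCCGC, TTTCGCGC, TTTGCCGC and TTTGGCGC on both strands, were in 0 of the 9 windows and in 2.26% of all promoters. A match of letters is a description of the window, and its absence says nothing of what binds there.

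Cycling cells made up 3.44% of young monocytes (exact binomial 95% interval 2.08% to 5.32%) and 15.9% of aged monocytes (13.7% to 18.3%). With 1 library per age no difference here has a replicate check, so each statement compares these libraries and not the ages, and all intervals cover counting error only. Depth was alike over all monocytes, with a median of 6604 UMIs per young and 6366 per aged monocyte. A sum of UMIs grows with depth, and in the aged library the share was 1.03% (1 of 97) below 4000 UMIs per cell, 9.67% (32 of 331) from 4000, 20.9% (63 of 301) from 6000 and 23.5% (62 of 264) from 8000 on. In the young library it was 3.23% (4 of 124), 2.15% (2 of 93), 2.98% (5 of 168) and 4.79% (8 of 167) in the same classes. The aged share was thus the higher in the 3 classes of 4000 UMIs or more, with intervals that did not overlap from 6000 on. After each monocyte was thinned at random to 2000 UMIs, which left out 20 young and 19 aged monocytes that were shallower, the rule still found 7 of 532 young (1.32%, 0.531% to 2.69%) and 70 of 974 aged monocytes (7.19%, 5.65% to 8.99%).

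**Figure D1:**
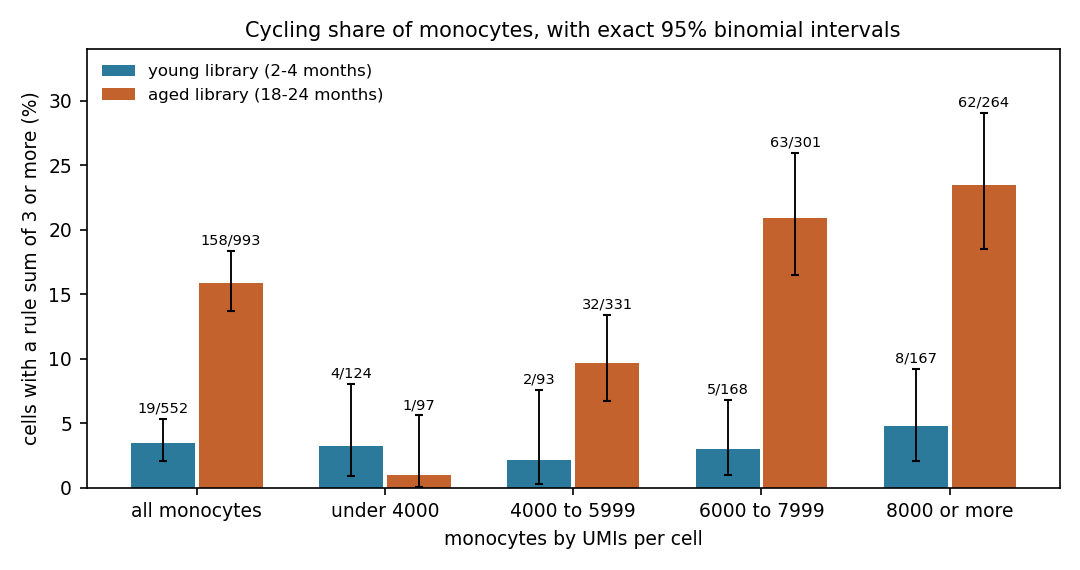
Share of monocytes with a rule sum of 3 or more (y axis, percent) over all monocytes and by UMIs per cell (x axis), for the young (blue) and aged (orange) library, with exact 95% binomial intervals and cells over cells above each bar. The aged bars are higher than the young bars in the 3 classes of 4000 UMIs or more, at 9.67%, 20.9% and 23.5%, and lower below 4000 UMIs.

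The same sum was counted in the other labelled cells. Among conventional dendritic cells it was 3 of 53 young (5.66%) and 5 of 107 aged cells (4.67%). Neutrophils gave 0 of 1144 young cells, which allows a share of up to 0.262%, and 0 of 2681 aged cells, which allows up to 0.112%. The share allowed by a count of 0 is given here and below as 3 divided by the number of cells. They were shallower, with medians of 1636.5 and 1914 UMIs, so the shares are not at equal depth. Natural killer cells gave 0 of 73 young cells (allowing up to 4.11%) and 0 of 63 aged cells (up to 4.76%), and 1 of 41 aged follicular B cells and 1 of 44 aged mast cells reached it. Of the cells the authors labelled Eryth-Neutro 1 of 13 young and 1 of 15 aged reached it.

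The rule rested mainly on Ccnb2 and Cenpa. In the young library Ccnb2 had a UMI in 17 of 19 cycling cells (89.5%) and in the aged library in 149 of 158 (94.3%), and Cenpa in 89.5% and 86.1%. Both genes stood at much the same level in the members of either library, Ccnb2 at 376 CPM (UMIs of a gene per total UMIs of the summed cells, on the usual CPM scale) young and 373 aged, Cenpa at 399 and 348 CPM. Cenpa also had 43 UMIs in young and 128 in aged neutrophils, 20.9 and 22.7 CPM. Birc5 followed in 57.9% of young and 66.5% of aged members, and Cdca3, which helps trigger mitotic entry, in 42.1% and 51.9%. Cdca8, or borealin, a partner of Birc5 in the chromosomal passenger complex, was found in 26.3% and 44.9%. The others were found in a minority: Ube2c in 15.8% and 26.6%, Cdc20 in 15.8% and 25.3%, Mki67 (the Ki-67 antigen of cycling cells) in 10.5% and 25.9%, the cyclin A2 gene Ccna2 in 15.8% and 22.2%, and the topoisomerase gene Top2a in 10.5% and 7.59%. These genes defined the cells, so the values describe the choice and test nothing.

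Members differed widely in how much of the set they carried. The rule sum ran from 3 to 21 in the young members with a median of 7, and from 3 to 95 in the aged members with a median of 9. The cell at 95 stood apart, since the next had 37. It held 13052 UMIs, had UMIs of all 10 rule genes and was not marked as a doublet; leaving it out changed the count of called aged genes from 464 to 463. Of young members, 6 of 19 (31.6%) carried 5 or more of the 10 genes, and of aged members 71 of 158 (44.9%). Only 1 young and 2 aged members reached the sum on 1 gene alone. The 46 aged cells just outside the threshold, with a sum of 2, had Stmn1 at 86.5 and Hmgb2 at 592 CPM. The MHC class II invariant chain Cd74 was at 819 CPM in them. The 13 just inside, with a sum of 3, had 161, 833 and 26.9 CPM of these genes in the same order. That last Cd74 value rests on only 3 UMIs. In all 48 aged cells with sums of 3 to 5, Cd74 stood at 390 CPM on 151 UMIs.

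**Figure D2:**
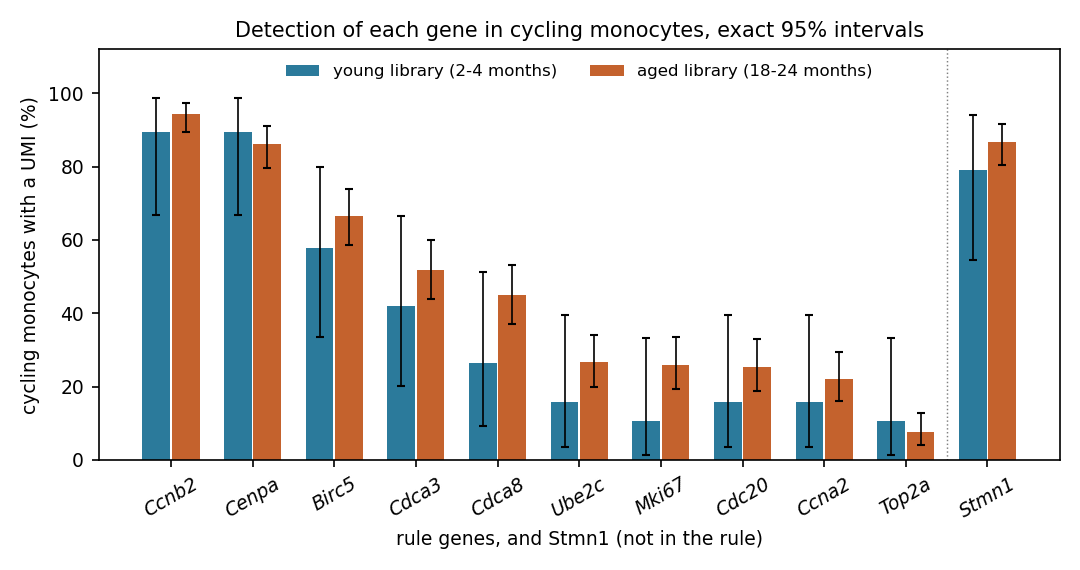
Share of cycling monocytes with a UMI of each rule gene and of Stmn1 (y axis, percent; genes on the x axis), young (blue, 19 cells) and aged (orange, 158 cells), with exact 95% binomial intervals. Ccnb2 and Cenpa are found in 86.1% to 94.3% of members, Top2a in 7.59% to 10.5%, and Stmn1, which the rule did not use, in 78.9% and 86.7%.

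Stmn1 was the 1 given marker that the rule did not use. It encodes stathmin, which destabilises microtubules. It had a UMI in 15 of 19 young members (78.9%) against 3.59% of young monocytes at 0, and in 137 of 158 aged members (86.7%) against 11.2% of aged monocytes at 0. Thinned to 2000 UMIs the shares were 52.9% against 0.699% in the young and 41.8% against 3.62% in the aged library. In natural killer and B cells, with medians of 2079 and 2847 UMIs, 5.75% young and 6.73% aged cells had a UMI, so the members stood far above the cells without the rule genes and above this background.

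The members were somewhat deeper than monocytes at 0, with medians of 7318 against 6467 UMIs in young and 7471 against 5874.5 in the aged library. At an equal 2000 UMIs the median number of genes found was 945 against 890 and 924 against 913. Mitochondrial UMIs made up a median of 2.15% of a young and 2.26% of an aged member, against 2.82% and 2.56% at 0. Of the members 0 of 19 young cells (allowing up to 15.8%) and 8 of 158 aged cells (5.06%) were marked as likely doublets, against 2.02% and 6.71% of the monocytes at 0. The libraries shared 12 cell barcodes, and 0 of these were members.

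Genes were summed over the cells of each group and compared as a ratio of CPM with an exact conditional binomial interval. A gene counted as measured when at least 10 UMIs were expected in the smaller group, and as called when the ratio was 2 or more, or 0.5 or less; the rule genes were left out. The rule chose the cells from the same counts, so these ratios are descriptions. In the aged library 131 of 6664 measured genes (1.97%) had a 2-fold or higher level in cycling cells and 333 (5%) at least 2-fold lower. In the young library, with 19 members, 46 of 1535 (3%) were higher and 101 (6.58%) lower. The median log2 ratio over all measured genes was −0.04 in the aged and 0.03 in the young library. Among the 1535 genes measured in the young library, all of them with aged values, 11 were called higher in the aged library, and 10 of these were also called higher in the young (90.9% of the aged and 21.7% of the young calls). Of 32 called lower in the aged library, 23 were also called lower in the young (71.9% and 22.8%), and 0 genes were called in opposite directions.

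The genes highest in cycling cells after the rule genes are given next. Ccnb1, the cyclin that drives entry into mitosis with Cdk1, had 61 UMIs in 35 of the 158 aged members and 1 UMI in all 626 aged monocytes at 0. It had no UMI in any cell of the young library, where 854 genes of the table stand at 0 throughout, so the young library gives no value for it. Stmn1 stood at 312 CPM against 25.4 in the aged library, which is 12.3 times as high (9.86 to 15.5), and at 299 against 5.90 CPM in the young, 50.6 times as high (28.0 to 95.5). Its level in members was thus nearly the same in both libraries, while the level at 0 was lower in the young. Cks1b, a small subunit of cyclin-dependent kinases, stood at 273 against 21.8 CPM in the aged library (12.5, 9.86 to 16.04) and was 13.2 times as high (8.15 to 20.9) in the young. Cdkn3, a phosphatase that acts on cyclin-dependent kinases, was 19.8 times as high (12.9 to 31.9) in the aged library on 154 against 24 UMIs. In the young library its ratio was 47.3 (18.2 to 137) on 15 against 7 UMIs.

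The centromere and kinetochore genes were among the highest as well. Cenpm, a subunit of the inner kinetochore, stood at 231 against 44.9 CPM in the aged library (5.15, 4.26 to 6.25) and was 15.3 times as high (8.997 to 25.6) in the young. Cenpf, a large kinetochore protein of late G2 and mitosis, had 37 UMIs in aged members against 5 in aged monocytes at 0 (22.9, 8.97 to 74.6), and 0 in the 19 young members against 6 at 0. Knstrn, a spindle adaptor at kinetochores, was 13.3 times as high in the aged and 15.5 times in the young library, and Cenpw, of the inner kinetochore, 9.96 and 14.05 times. Spc24, of the Ndc80 complex that grips microtubules, stood 8.27 and 10.3 times as high. Tacc3, which stabilises spindle microtubules, and Racgap1, which organises the cleavage furrow, had aged ratios of 10.4 and 9.54. Lockd, a long noncoding RNA transcribed beside Cdkn1b, had 86 against 10 UMIs in the aged library (26.6, 13.8 to 57.4) and 7 against 11 in the young (14.05, 4.62 to 39.7).

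Among these 15 named genes Hmgb2 had the most molecules behind it. It encodes a DNA-bending high mobility group protein, and every member had at least 1 UMI of it. So had 88.3% of young and 91.4% of aged monocytes at 0, and 81.4% and 85.8% of neutrophils. In cells thinned to an equal depth the shares were 94.1% of young and 96.2% of aged members. They were 62.9% and 61.6% at 0, and 84.7% and 87.7% in neutrophils. The part of neutrophil RNA in the Hmgb2 values was not tested. Hmgb2 stood at 2342 against 519 CPM in the aged library (4.51, 4.26 to 4.77). In the young library it stood at 2268 against 480 CPM (4.72, 4.15 to 5.36). The libraries thus gave nearly the same level and ratio. Hmgb3 was 10.0 times as high in the aged library, with 3 against 5 UMIs in the young, and Rdm1, linked to DNA repair, 5.47 and 6.41 times as high. Of the 15 genes, 13 were higher by 2-fold or more in the young library too, the remaining 2 (Ccnb1 and Cenpf) having 0 UMIs in young members; only 1 of the 15, Hmgb2, passed the young library's count minimum. RefSeq promoters were at hand for 12 of the 15, and 8 of these (66.7%) held TTTGAA against 17.9% of all promoters, while 5 (41.7%) held TTTGAA with 2 or more CCAAT. Stmn1 (chr4:134468320-134473843, plus strand) and Hmgb2 (chr8:57511907-57515999, plus strand), in GRCm38, are both protein-coding.

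Gene lists were compared in the same way. For lists a member counts at 1.5-fold, which 8.27% of all measured aged genes reached upward and 14.4% downward, and 15.8% and 14.1% of young genes. Of spindle, kinetochore, condensin and cytokinesis genes, 10 of the 11 measured in the aged library were higher and 0 lower. The list holds 49 genes in the table, and a scarce gene can pass the count minimum through the members where it is high (Cenpf with 37 against 5 UMIs), so this count is in part set by the minimum. Counts of measured members in the other lists share this limit. A gene can pass through whichever group holds it high (Ccnb1 with 61 against 1 UMI). The sum over the spindle list was 5.81 times as high (5.25 to 6.44) in the aged and 4.52 times (3.39 to 5.94) in the young library. In the young library none passed the minimum alone, and 29 of the 49 genes had no UMI in any cell. The sums of the libraries therefore cover different genes. Cenpm alone gave 42.9% of the young members' UMIs of this list. Of mitotic cyclins, kinases and checkpoint genes, 5 of 7 measured were higher in the aged library and 1 of 2 in the young, with sums of 2.78 (2.58 to 3.003) and 3.17 (2.61 to 3.82). Within this list Cks2, a small subunit of cyclin-dependent kinases, was at 2.09 in the aged and 2.50 in the young library, and Ube2s, a ubiquitin-conjugating enzyme of the anaphase-promoting complex, at 1.74 and 2.56. Bub3, which has roles in the checkpoint and is widely expressed, was at 0.93 and Pttg1, or securin, at 1.12 in the aged library.

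The summed DNA replication genes differed less than the spindle genes. Of 46 origin licensing and replication genes, 17 were measured in the aged library; 5 were higher and 2 lower, with a median log2 ratio of 0.35, and their sum was 1.18 times that at 0 (1.07 to 1.29). In the young library none was measured alone, and the sum was 0.77 (0.55 to 1.06), an interval that holds 1. Rfc5, of the clamp loader, was 2.67 times as high (1.37 to 5.17) in the aged library on 19 against 22 UMIs. Pcna, the sliding clamp, was at 0.62 (0.40 to 0.93) on 29 against 144 UMIs in the aged library and had 1 against 96 UMIs in the young. Of nucleotide synthesis genes, 3 of 14 measured were higher, with Rrm1, of ribonucleotide reductase, at 3.83 (2.07 to 7.16). Replication-dependent histones, whose mature RNAs mostly lack the poly(A) tail that this chemistry captures, summed to 2.17 (1.94 to 2.44) and 3.07 (2.25 to 4.11); 56.5% of the aged and 61.5% of the young UMIs were of the single gene Hist1h2bc.

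Chromatin and microtubule genes were broadly higher. Of histone variant, high mobility group and chromatin genes 16 of 24 measured were higher in the aged and 8 of 14 in the young library, and 0 lower, with median log2 ratios of 1.09 and 0.98. H2afz, the H2A.Z variant, was at 2.40 (2.30 to 2.50) in the aged and 2.47 in the young library. Hmgb1 was at 3.25 and 4.63, Hmgn2 at 3.46 and 5.08, and Nucks1, a nuclear DNA-binding protein, at 4.08 and 6.43. H3f3a, the replication-independent histone H3.3, stood at 0.98 and 1.04, so not all abundant histone transcripts moved. Of tubulin, stathmin and Ran genes 7 of 10 were higher in the aged and 2 of 4 in the young library; Ran, the GTPase of nuclear transport and spindle assembly, was at 2.71 and 2.58, and Tubb4b at 3.22 and 2.633. Several of these genes have near-identical copies or processed pseudogenes (Hmgb1, Hmgn2, H2afz, the tubulins, the histones), among which the authors' counting could split or lose reads, so their levels are uncertain.

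Metabolic and RNA genes shifted less. Of splicing and RNA-binding genes 10 of 26 were higher in the aged and 9 of 22 in the young library, with sums of 1.38 (1.35 to 1.41) and 1.43 (1.35 to 1.52); Hnrnpa2b1 was at 1.71 and 1.90 and Srsf2 at 1.72 and 1.90. Glycolysis genes summed to 1.24 and 1.35, and nuclear respiratory chain genes to 1.16 and 1.23, of which Atp5b, a catalytic subunit of ATP synthase, was at 1.51 and 1.98. Mitochondrially encoded RNAs were at 0.88 and 0.77, below the cells at 0 in both libraries. Ribosomal protein genes summed to 0.97 and 0.93, and nucleolar genes to 1.05 (0.99 to 1.11) and 1.04 (0.88 to 1.22). G1 cyclins, their kinases and E2F factors summed to 1.18 and 1.10, with 1 of 7 measured higher in the aged library; Ccnd3, the main D cyclin here, was at 1.23 and 1.27.

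**Figure D3:**
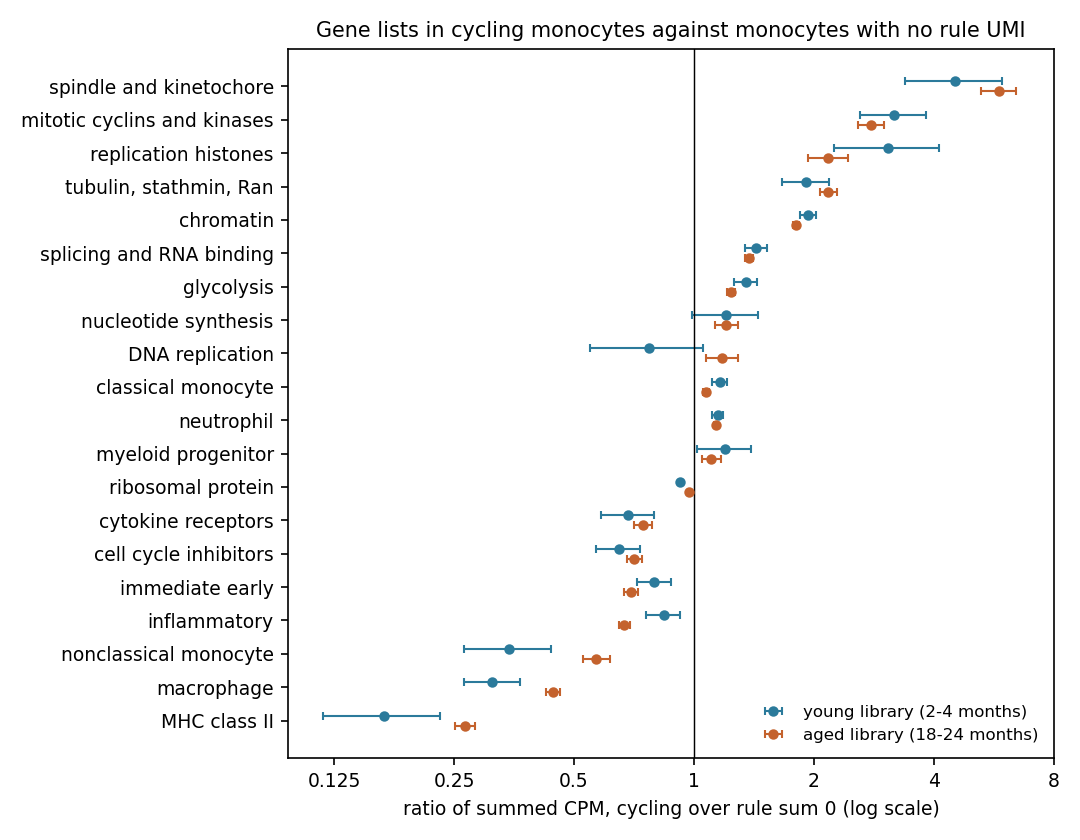
Ratio of summed CPM of 20 gene lists in cycling monocytes over monocytes at 0 (x axis, log scale), young (blue) and aged (orange), with exact 95% intervals for counting error. Of the lists plotted, spindle genes are highest at 4.52 and 5.81, DNA replication genes stand at 0.77 and 1.18, and MHC class II genes are lowest at 0.17 and 0.27. Of the 49 spindle genes, 29 have no UMI in the young library.

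Cell cycle inhibitors and antiproliferative genes were lower. Of 26 measured in the aged library 10 were lower and 0 higher, and of 10 in the young 8 were lower, with sums of 0.71 (0.68 to 0.74) and 0.65 (0.57 to 0.73). Btg1, an antiproliferative regulator of RNA decay, was at 0.60 and 0.50, and Klf2, a factor of quiescence in lymphocytes and of monocyte restraint, at 0.58 and 0.70. Cdkn2c, or p18, had 7 against 92 UMIs in the aged library (0.24, 0.09 to 0.51), and the retinoblastoma gene Rb1 12 against 84 (0.44, 0.22 to 0.81). Cdkn2d, or p19, which belongs to the same inhibitor family, was higher rather than lower, at 1.34 (1.17 to 1.53) and 1.37, below the fold for a call. Targets of p53 summed to 0.95 (0.86 to 1.05) and 1.04 (0.79 to 1.34).

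Members were mostly Ly6c2-positive. Ly6c2, a surface marker of classical monocytes whose near-identical neighbour Ly6c1 makes its count uncertain, had 3 or more UMIs in 17 of 19 young members (89.5%) and 141 of 158 aged members (89.2%), against 59.0% and 55.8% of the cells at 0. Among monocytes with no Ly6c2 UMI the rule found 0 of 109 young cells (allowing up to 2.75%) and 0 of 145 aged cells (up to 2.07%). Ly6c2 itself was at 2.07 (1.81 to 2.37) in young and 1.70 (1.61 to 1.80) in aged members. Of the other classical markers, the coagulation factor gene F13a1 was at 1.80 and 1.66, while the chemokine receptor Ccr2, needed for exit from marrow, was at 0.88 and 0.85. In all, 6 of 14 classical markers were higher in the young library, 3 of 14 in the aged, and none lower.

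Nonclassical markers were low. All 6 measured in the young library and 10 of 12 in the aged were lower, with sums of 0.34 (0.26 to 0.44) and 0.57 (0.53 to 0.61). Nr4a1 was at 0.30 and 0.33. The fractalkine receptor Cx3cr1 had 0 UMIs in young members against 268 at 0, and 18 against 150 in the aged library (0.37, 0.21 to 0.61). Ace, the angiotensin-converting enzyme, had 0 against 122 and 8 against 79 UMIs. MHC class II genes, which present antigen, were low too: 6 of 6 measured were lower in each library, with sums of 0.17 (0.12 to 0.23) and 0.27 (0.25 to 0.28). Cd74 stood at 69.0 against 710 CPM in the young (0.0971, 0.0443 to 0.185) and at 362 against 1592 CPM in the aged library (0.23, 0.21 to 0.25). Its UMIs came from 6 of 19 young and 42 of 158 aged members, and 1 aged member held 28.8% of them.

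These differences depended on which monocytes served for comparison. When members and cells at 0 were both limited to monocytes with 3 or more Ly6c2 UMIs, a comparison added after the data were seen, 17 and 141 members were set against 263 and 349 cells. MHC class II genes then summed to 0.34 in young and 0.81 in aged members, where 0 of 6 measured were 1.5-fold lower, and Cd74 was at 0.24 and 0.78. Nonclassical markers were at 0.57 and 0.84, with 4 of 11 lower in the aged library. The division genes kept their ratios: spindle genes summed to 4.58 and 5.33, mitotic kinase genes to 3.21 and 2.91, chromatin genes to 1.86 and 1.77, and Hmgb2 was at 4.27 and 4.44. Replication genes stood at 0.76 and 1.23, and the inhibitors at 0.70 and 0.78.

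The remaining genes named as lowest were of mixed function. Ecm1, a secreted matrix protein, had 25 UMIs in aged members against 476 at 0 (0.16, 0.10 to 0.24) and 0 against 156 in the young library. Tppp3, a microtubule-stabilising protein, was at 0.20 in the aged library and had 2 against 344 UMIs in the young, and Apoe, the lipid carrier of macrophages, at 0.33 (1366 against 4199 CPM) and 0.20. The immediate early factor Egr1 had 1 against 70 UMIs in the aged and 2 against 102 in the young library, and Stxbp6, a SNARE-binding protein, 3 against 110 and 0 against 84. Dpysl2, a tubulin-binding protein, was at 0.16 (8 against 151 UMIs) in the aged library and had 3 against 129 UMIs in the young. Zbtb20, a zinc finger repressor, had 2 against 67 and 1 against 53 UMIs in the same order. Young members held 130486 UMIs in all against 2880549 at 0, so raw young counts overstate the gap. The young ratios of Egr1, Dpysl2 and Zbtb20 were 0.43 (0.05 to 1.60), 0.51 (0.10 to 1.53) and 0.42 (0.01 to 2.42). These 3 intervals hold 1. Mcpt8, a basophil protease, had 1 against 95 UMIs in the aged library, 90 of them in 1 cell at 0. Of the 12 named as lowest, 11 had the same direction in the young library and 10 were at least 2-fold lower there. Only 6 of the 12 passed the young library's count minimum, and 3 had 0 UMIs in young members. For 8 of the 12 the young interval lay below 1. Over all genes measured in the young library 6.58% were at least 2-fold lower. Malat1, a nuclear noncoding RNA picked out after its values were seen, stood at 4562 against 10483 CPM in the aged and 4154 against 13197 CPM in the young library, ratios of 0.44 and 0.31.

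Of colony-stimulating factor and cytokine receptors, 7 of 17 measured were lower and 1 higher in the aged library, and 4 of 11 lower and 1 higher in the young; Csf1r, the receptor that sustains monocytes, was at 0.50 (0.41 to 0.61) and 0.30 (0.14 to 0.57). Il1b was at 0.44 and 0.36, and inflammatory genes summed to 0.67 and 0.84, with 5 of 13 measured lower and 1 higher in the aged library and 2 of 6 lower in the young. Immediate early genes summed to 0.70 and 0.79, with 6 of 14 and 3 of 9 lower and none higher. Interferon-stimulated genes summed to 1.05 (1.00 to 1.10) and 0.99, with 1990 UMIs of Ly6e in aged members, while 7 of the 14 measured in the aged library were lower and 0 higher.

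Several values moved with the rule sum across all aged monocytes, of which the classes at 0, 1 and 2 are not members. In the aged library Stmn1 stood at 25.4, 54.2, 86.5, 229.6, 270.0 and 394.5 CPM in cells with sums of 0, 1, 2, 3 to 5, 6 to 10, and 11 or more (626, 163, 46, 48, 41 and 69 cells). Hmgb2 stood at 519, 583, 592, 1205, 2093 and 3280 CPM, nearly level up to a sum of 2 and climbing after it. Malat1 went the other way, from 10483 CPM at 0 to 5105 at 3 to 5 and 3710 at 11 or more. Spindle genes summed to 148 CPM at 0, 418 at 3 to 5 and 1314 at 11 or more, whereas replication genes stood at 427, 470 and 585 CPM. Ly6c2 was higher in every class above 0 than at 0 but had no steady course, at 895, 1229, 1179, 1666, 1583 and 1392 CPM. The classes are cut from the rule's own counts, and deeper cells reach higher sums, so the courses are descriptions.

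**Figure D4:**
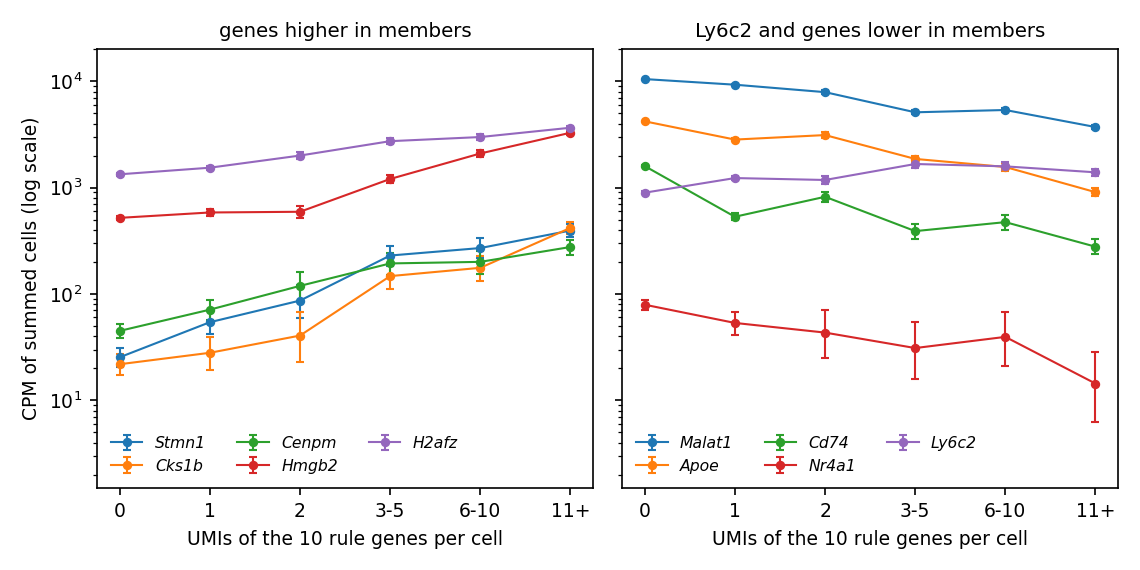
CPM of summed cells (y axis, log scale) by the rule sum per cell (x axis) in aged monocytes, with exact 95% Poisson intervals; genes higher in members on the left, Ly6c2 and genes lower in members on the right. Stmn1 climbs from 25.4 to 394.5 CPM and Hmgb2 from 519 to 3280 CPM, while Malat1 goes from 10483 to 3710 CPM.

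Aged members that carried a UMI of Mki67, Top2a or Ccna2 (66 cells) were set beside the other 92, a split made on rule genes. Median depths were close, at 7580 and 7302 UMIs, but median rule sums were 14.5 and 6. Higher counts of genes that go with the rule sum are therefore built into the split. Ccnb1 was 4.32 times as high in the 66 cells, Cks1b 2.11 times and Hmgb2 1.53 times, and the rule gene Ccnb2 1.20 times (0.996 to 1.44). Replication histones were at 1.34 (1.13 to 1.60), the replication list at 1.11 (0.95 to 1.30), H2afz at 1.02 and Ly6c2 at 0.97. The young library had 5 and 14 such cells, too few to compare.

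Other monocyte states crossed with the members. Cells with 3 or more UMIs of Spp1 (osteopontin) and Dmkn (dermokine) made up 4 of 19 young members (21.1%) and 90 of 158 aged members (57.0%), against 3.81% and 22.7% of the cells at 0. Seen from the other side, 15.4% (4 of 26) of young and 28.4% (90 of 317) of aged cells of that state met the rule. Cells with 3 or more UMIs of the complement genes C1qa, C1qb and C1qc were 0 of 19 young members (allowing up to 15.8%) and 23 of 158 aged members (14.6%), against 6.05% and 18.5% at 0. The macrophage list accordingly held members in both directions in the aged library: Dmkn was at 2.12 (1.87 to 2.40) and Spp1 at 1.91 (1.66 to 2.21), C1qb at 0.42 (0.36 to 0.50). Without the cells of both states the aged share was 11.3% and the young share 3.05%.

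Markers of other cell types are given here because some moved with the members; their part in the results was not tested. The 19 neutrophil markers summed to 1.13 (1.12 to 1.14) times the level at 0 in the aged and 1.15 (1.11 to 1.19) in the young library, but in medians over cells to 31921 against 21188 CPM aged and 26534 against 16704 CPM young. Their levels in single members ran from 8222 to 207149 CPM in the aged and 9156 to 73512 CPM in the young library. Against depth-matched cells at 0 the summed neutrophil markers stood at 1.01 in the aged and 1.40 in the young library. Ly6g, the neutrophil sort marker, had a UMI in 0 of 19 young and 39 of 158 aged members (24.7%), against 8.97% and 14.7% at 0. In natural killer and B cells, which lack the gene, the shares were 4.60% and 15.4%. At an equal 2000 UMIs the aged members stood at 10.1% and the aged monocytes at 0 at 6.26%. The aged natural killer and B cells then stood at 10.5% (8 of 76 cells, 4.66% to 19.7%). Of these 76 cells 42.1% also had a UMI of the classical monocyte marker Chil3. The source of the Ly6g UMIs was not tested. Progenitor genes summed to 1.10 (1.05 to 1.17) in the aged library, with 3 of 9 measured higher and 1 lower, and to 1.19 (1.02 to 1.39) in the young, with 1 of 5 higher. Depth-matched cells at 0 gave progenitor sums of 0.99 in the aged library, with 1 of 9 higher and 1 lower, and 1.31 in the young. Of the defining members, Mpo had 0 UMIs in members of either library, Kit 1 and Cd34 5 in the aged and 0 in the young, and Elane 21 and 0. Ms4a3, a gene of granulocyte and monocyte progenitors, had 34 UMIs in aged members against 23 at 0 (4.57, 2.62 to 8.13) and none in the young library. Prtn3, proteinase 3, was at 1.70 (1.52 to 1.89) and 1.51. At least 1 UMI of Mpo, Elane, Prtn3 or Ctsg was found in 85.4% of aged and 73.7% of young members against 60.2% and 55.4% at 0. These shares are not at equal depth. At an equal 2000 UMIs Prtn3 was found in 50% of aged members against 29.5% at 0. In the young library it was then found in 35.3% of members (14.2% to 61.7%) against 28.4% at 0. The 9 erythroid genes were at 0.26 in the aged library, where 1 cell at 0 reached 189318 CPM of them; against depth-matched cells the sum was 0.88. Summed natural killer, B cell, T cell, platelet and basophil markers had a median of 0 CPM per member in both libraries.

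Between the libraries, cycling monocytes were compared directly as well. Of 1614 genes measured, 44 (2.73%) were higher by 2-fold or more in the aged and 22 (1.36%) lower, against 1.71% and 2.79% of 8471 genes in the monocytes at 0; the median log2 ratio was 0.05 in members and 0.01 at 0. Lists of division genes were not all alike: mitotic kinase genes summed to 0.93 (0.77 to 1.12) aged over young, chromatin genes to 1.01 (0.97 to 1.06) and replication histones to 0.99 (0.74 to 1.35), over genes with a UMI in both libraries. Spindle genes were at 1.38 (1.07 to 1.81), replication genes at 1.61 (1.17 to 2.28) and tubulin, stathmin and Ran genes at 1.25 (1.10 to 1.44), with 4 of 8 measured at least 1.5-fold higher. The intervals of the first 3 lists hold 1 and those of the last 3 lie above it. In members the spindle ratio rests on 63 young UMIs with 2 genes measured, and the replication ratio on 40 with 0 measured. In monocytes at 0 the last 3 lists stood at 1.29 (1.12 to 1.49), 1.07 (0.99 to 1.15) and 1.10 (1.05 to 1.16). The first 3 stood at 1.14, 1.09 and 1.38 there. Whether these ratios differ between members and cells at 0 was not tested.

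Among the genes higher in aged members were MHC class II and complement genes. MHC class II genes summed to 3.39 (2.45 to 4.84) aged over young in members and to 2.12 at 0, all 5 measured members being 1.5-fold higher (background 10.2% higher and 5.7% lower in cycling cells, 6.66% and 9.81% at 0), with Cd74 at 5.25 (2.74 to 11.6) against 2.24 at 0 and H2-Aa at 3.60 (1.63 to 9.92) against 2.24. Of the aged members' UMIs 1 cell held 28.8% for Cd74 and 40.3% for H2-Aa, which was found in 24 of 158 aged members. C1qb had 168 UMIs in aged members and 1 in young (17.2, 3.04 to 683), and was at 3.42 at 0. Dmkn was at 4.98 (2.60 to 10.97) and 4.24, and the neutrophil and monocyte alarmin S100a9 at 2.51 (2.31 to 2.74) and 1.81. The neutrophil list moved the same way, at 1.53 in members and 1.55 at 0, where 12 of 17 measured were higher; its part in the S100a9 ratio was not tested. Tmem176b, a membrane protein of antigen-presenting cells, was at 3.45 (1.65 to 8.68) in members and 0.97 at 0. C5ar1, the receptor of complement C5a, was at 4.20 (1.77 to 13.1) and 2.104. The young members held only 7 UMIs of Tmem176b, in 4 cells, and 5 UMIs of C5ar1, in 3 cells. For each gene 1 young member held most of them, 57.1% and 60%. The Fc receptor gene Fcgr4 had 114 UMIs in aged members and 1 in young, and H2-Eb1, also with 1 young UMI, was at 12.8 (2.25 to 509) and 2.50 at 0.

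Of the genes lower in aged members, Wdr89 was at 0.29 (0.25 to 0.34) and at 0.30 in monocytes at 0, so the ratio was nearly the same in both. Tmsb10, which binds actin monomers, was at 0.61 and 0.66, Atp5k, of ATP synthase, at 0.54 and 0.69, and Snrpg, of the spliceosome core, at 0.56 and 0.68. Ap2a2, an endocytic adaptor, was at 0.46 (0.32 to 0.68) and 0.90, the spliceosome gene Snrnp27 at 0.43 (0.28 to 0.69) and 0.86, and the matrix glycoprotein gene Emilin2 at 0.52 (0.40 to 0.70) and 0.89. Cox17, a copper chaperone of cytochrome oxidase, was at 0.53 and 0.81, Fos at 0.64 and 0.90, and the metallothionein gene Mt1 at 0.60 and 0.89. All 10 ratios lay below 1 in both sets of cells. In monocytes at 0 the intervals of Ap2a2 (0.80 to 1.008) and Snrnp27 (0.73 to 1.013) hold 1. Whether the ratios differ between members and cells at 0 was not tested. In the members without a UMI of Mpo, Elane, Prtn3 or Ctsg, 23 aged and 5 young cells, Fos and Mt1 were no longer lower, and Cd74 and H2-Aa were no longer higher, in the aged library.

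**Figure D5:**
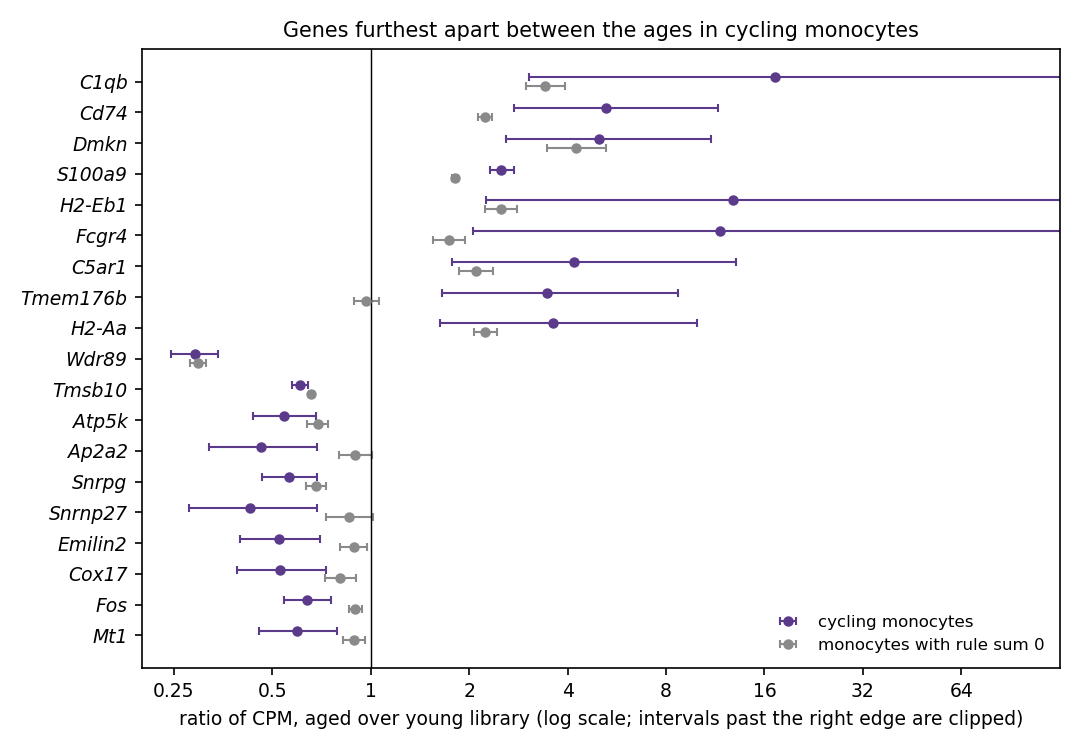
Ratio of CPM, aged over young library (x axis, log scale, intervals clipped past the right edge), for the genes shown of those furthest apart in each direction in cycling monocytes (purple) and the same genes in monocytes at 0 (grey), with exact 95% intervals. C1qb, Fcgr4 and H2-Eb1 have the widest intervals, each resting on 1 young UMI in members. Wdr89 has nearly the same ratio in both, 0.29 and 0.30.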

How the data were processed

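The authors deposited raw UMI counts per gene and cell in 1 table of 11691 genes and 5793 cells, with a library and a population label for each cell. The 10x 3′ chemistry was version v2, per the labels. Cell Ranger 2.1.1 and mm10 are named in the submitters' processing notes; the gene annotation, the filters on genes and cells, the mixing of the sorted fractions and any pooling of mice were not given in the sources used here. 854 genes have no UMI in the young library and 129 none in the aged.

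No cell was removed. UMIs were summed over cells of a group and divided by the group's total to give CPM. Ratios have exact conditional binomial, sums exact Poisson and shares Clopper-Pearson intervals, at a level of 95%. The share that a count of 0 allows is instead 3 divided by the number of cells. Each age has 1 library, so nothing was tested and p-values are absent. A gene needed 10 expected UMIs in the smaller group. Summed depth was 130486 UMIs for young and 1274964 for aged members, 2880549 and 3942889 for monocytes at 0. Reads of 3′ ends were not scaled by length, so levels are compared within a gene. Doublets were scored with scrublet in scanpy 1.11.5; its automatic threshold called 4 young and 0 aged cells, so it did not work, and the highest scores were marked at 8 per 1000 cells for each 1000 cells (27 and 124 cells) and removed only as an alternative. Named are the 15 highest and 12 lowest genes in the aged library and the 10 highest and 10 lowest between ages, ranked by the interval bound nearest to 1, without rule, ribosomal, mitochondrial, globin, immunoglobulin, T cell receptor, Xist and Y-linked genes, pseudogenes and unnamed models. From each of 35 gene lists up to 6 measured members could be named. Some genes that the rule names are not reported here. The cells, genes and lists were chosen with earlier results of these data known. The computation was tested on simulated counts. Other settings were thresholds of 2 and 5, expected counts of 5 and 30, thinning, depth matching, other scalings and cell subsets. Python 3.11.15, numpy 2.4.6, scipy 1.17.1 and matplotlib 3.10.9 were used.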

Additional observations from a re-analysis of the deposited data

Results flagged for a closer look

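S100a9, a neutrophil and monocyte alarmin, had a ratio of cycling monocytes over monocytes at 0 of 0.782 in young and 1.09 in aged cells, so the libraries lie on opposite sides of 1. Ifitm6, of the interferon-induced transmembrane family, had ratios of 1.25 and 0.866. With 1 library per age neither difference was tested.

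Outside the monocytes, 4.67% of aged conventional dendritic cells (5 of 107) had a rule sum of 3 or more, a value from cells that the comparisons of monocytes do not use.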

How the results depend on the processing

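No paired analysis was possible because each age has 1 library. The aged share was 20.5% at a threshold of 2 and 12.99% at 5, 7.19% after thinning, 19.7% in monocytes with at least 5000 UMIs, 21.7% in those with 3 or more Ly6c2 UMIs and 11.3% without C1q and Spp1-Dmkn cells; the young share after thinning was 1.32%. The called genes of the young library (147 as reported) numbered 298 against depth-matched cells, 38 after thinning, 409 and 34 at expected counts of 5 and 30, 46 without cells with granule protease UMIs and 96 in Ly6c2 cells. In the aged library (464) they numbered 261 after thinning, 861 and 160 at expected counts of 5 and 30, 135 without granule protease cells and 301 without C1q and Spp1-Dmkn cells. Between ages (66) they numbered 20, 210, 13 and 39 under thinning, expected counts of 5 and 30, and without granule protease cells. These settings also change how many cells or genes enter (365 genes measured in the young library without granule protease cells, against 1535). The split of calls moved too: against depth-matched cells 193 young genes were higher and 105 lower (46 and 101 as reported), 192 and 298 aged; in Ly6c2 cells 141 and 204 aged; at an expected count of 30, 3 and 10 between ages. The median young gene stood at log2 0.14 against depth-matched cells. Without granule protease cells, 23 aged and 5 young, 4 log2 ratios between ages changed sign: Cd74 −1.42, H2-Aa −2.22, Fos 0.0059 and Mt1 0.17; the cause was not tested. Ly6c2, Spp1-Dmkn and highest-cell settings were chosen after the data were seen. The 19 young members limit every young value.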
